A study of Homo sapiens with 8 samples.

Results

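The genes described here are the human oxygen sensing genes EGLN1, EGLN2, EGLN3, HIF1A, EPAS1, ARNT, VHL and HIF1AN, with CA9 and VEGFA as output genes of the pathway. They were picked by symbol from a table of m6A and expression in cultures labelled HepG2. Each symbol had 1 row, so 10 of 25918 gene models are covered. The choice was made with the ranks and peaks of these libraries already known, so the values below are a description and carry no test.

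In cells with enough oxygen, the prolyl hydroxylases encoded by EGLN1, EGLN2 and EGLN3 hydroxylate the alpha subunits HIF1A and EPAS1. The ubiquitin ligase subunit VHL then binds the hydroxylated protein and marks it for degradation, while the asparaginyl hydroxylase HIF1AN lowers its activity. When oxygen is short, the alpha subunits accumulate, pair with ARNT and switch on targets such as CA9, VEGFA and EGLN3, and this control acts mainly on protein rather than on HIF1A mRNA. N6-methyladenosine (m6A) is a methylated base of mRNA, often found near stop codons and in long exons, that affects splicing, translation and decay.

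In the deposited coordinates, whose build was not given and is not GRCh38, EGLN1 lies at chr1:229568054-229627413 on the minus strand, EGLN2 at chr19:45998021-46006177 on the plus strand and EGLN3 at chr14:33463172-33490035 on the minus strand. HIF1A lies at chr14:61231992-61284729 and EPAS1 at chr2:46378067-46467340, both on the plus strand, and ARNT at chr1:149048810-149115810 on the minus strand. VHL at chr3:10158319-10168746, HIF1AN at chr10:102285631-102303671, CA9 at chr9:35663915-35671154 and VEGFA at chr6:43845931-43862201 are on the plus strand.

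The series set 4 treatments of these cultures side by side: hepatocyte growth factor (HGF) at 10 ng/ml overnight, interferon gamma (IFNg) at 200 ng/ml overnight, ultraviolet light (UV) at 0.04 J/cm2, and heat shock at 43 degrees C for 30 min. UV was followed by 4 h of recovery, and the submitters' wording does not settle whether heat shock was too. Each treatment had 1 library of RNA precipitated with an anti-m6A antibody and 1 input library, both from polyA RNA cut to about 100 nt. With 1 pair of libraries a treatment, and no untreated or low-oxygen sample analysed here, no replicate spread and no p-value can be given, and treatment cannot be told apart from library.

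The label HepG2, a hepatocarcinoma line, was not borne out by its defining liver transcripts. Of 14 hepatocyte markers, 13 were under the 60th percentile in all 4 treatments. Albumin (ALB) stood at 24.9 after HGF, 22.3 after IFNg, 45.5 after UV and 57.6 after heat shock, and only transthyretin (TTR) reached the 60th percentile, at 76.1 after UV and 71.5 after heat shock. Over the whole table, 12624 of 25918 models reached that percentile in some treatment. Among 14 fibroblast, endothelial and blood cell markers 4 reached it, and 10 were under it in all 4 treatments. The highest was the collagen gene COL1A1, at 83.6 after HGF, 80.9 after IFNg, 64.7 after UV and 60.7 after heat shock. Another collagen gene of that list, COL1A2, was at or near the floors, at 20.6 after HGF, 18.5 after IFNg, 45.5 after UV and 33.2 after heat shock. The values below therefore belong to cultures labelled HepG2, whose identity was not settled.

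Expression is a deposited rank within each treatment, written as a percentile from 0 (lowest) to 100 among all gene models, so it gives no amount and no fold change. The lowest rank in each treatment is shared by many models and acts as a floor, at 20.4 after HGF, 18.4 after IFNg, 45.5 after UV and 32.7 after heat shock. All 10 genes lay above every floor and above the 60th percentile in each treatment. A gene was counted as apart in a treatment where it lay at least 10 points above, or at least 10 points below, each of the other 3. Comparisons across all genes used the 12624 models at or above the 60th percentile in some treatment.

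2 of the 10 genes lay apart above in some treatment, CA9 after HGF and EPAS1 after IFNg, against 9.76% of all models compared. Another 2, EGLN2 and VHL, lay apart below after heat shock, against 3.98% of models after heat shock and 10.6% in some treatment. The members' shares rest on 2 genes each. Of the 10 genes, 5 had their highest rank after HGF, 4 after IFNg, 1 after heat shock and 0 after UV. The share of all models with their highest rank in each treatment was not computed, so these counts have no background. After UV 0 genes lay apart, where 1.93% of models were apart above and 2.17% below, and 0 lay apart below after IFNg, against 3.02% of models.

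**Figure D1:**
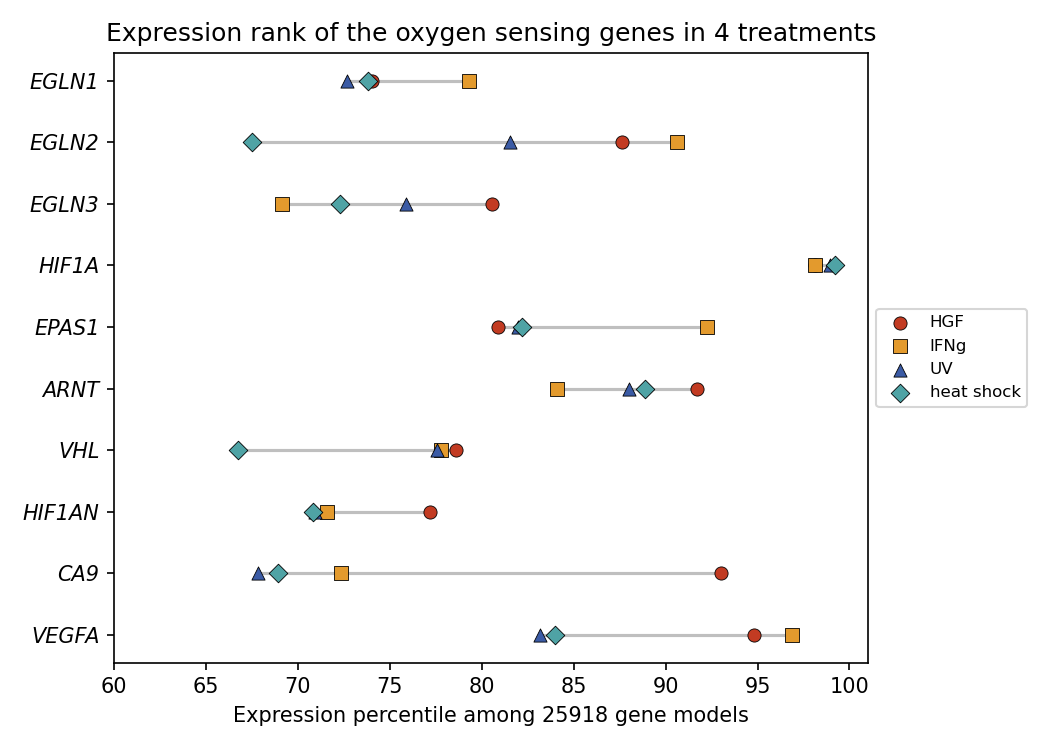
Expression percentile among all gene models (horizontal axis) of the 10 genes in the 4 treatments, 1 point for each treatment and no error bars, since each treatment had 1 pair of libraries. CA9 after HGF (93.0) lies 20.6 points from its nearest other treatment, while the 4 points of HIF1A span 1.10.

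CA9 encodes carbonic anhydrase IX, a membrane enzyme that turns carbon dioxide into bicarbonate and protons outside the cell and is one of the most used markers of hypoxia. It ranked at 93.0 after HGF, against 72.3 after IFNg, 67.8 after UV and 68.9 after heat shock. The HGF library stood alone, and the other 3 lay within a few points of each other. Its gap of 20.6 points over the next treatment was the 27th of 12624 models for HGF, and the 4th of 11334 coding models. Across all models, 1.57% lay apart above after HGF. In bulk RNA, fewer cells of a kind and less RNA per cell cannot be told apart, so the rank does not say whether all or some cells carried more CA9 mRNA.

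CA9 had 1 listed m6A peak, and it was in the HGF library, at position 974 of the transcript model in exon 7, in coding sequence, with a score of 2.51. The score is the authors' own enrichment score, whose formula was not given in the sources used here, with a lowest listed value of 2. This peak was at the 21.8th percentile of the HGF scores. Of 988 coding models within 2 points of the mean rank of CA9, 2.02% likewise had a peak after HGF and in no other treatment. CA9 mRNA also ranked highest after HGF, and a peak that is not listed does not show an unmethylated transcript, since the read depth is unknown. The exon is printed in full because it holds the single peak of the gene. It is the GENCODE 29 exon of the same number and length (158 bases), GRCh38 chr9:35679185-35679342, plus strand, 5′ to 3′ in transcript sense, and capitals mark each GGAC or GACT, the short forms of the common m6A consensus.
CA9 exon 7: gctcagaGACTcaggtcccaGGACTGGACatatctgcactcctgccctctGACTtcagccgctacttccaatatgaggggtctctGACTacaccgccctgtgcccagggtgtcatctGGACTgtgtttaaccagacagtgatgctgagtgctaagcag
The exon held GGAC 3 times and GACT 5 times, some of them overlapping, and 47.9% of windows of that length along the same transcript hold at least 1 of either. The share of windows holding as many as the exon was not computed. The place of position 974 inside the exon was not settled, because the deposited model's first exons could not be matched.

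The CA9 promoter is printed because CA9 had the widest spread of ranks of the 10 genes. In the RefSeq promoter table (GRCh38.p14), the window from 250 bases before to 50 after the start held 1 match to the core of the hypoxia response element, searched as ACGTG or GCGTG on both strands. The match lay 18 bases before the start, on the minus strand, and its letters as read on the plus strand are in capitals in this stretch of chr9:35673890-35673927.
CA9 promoter window: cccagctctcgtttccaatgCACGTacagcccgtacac
The table held 10 promoters of 8 of these genes, of which 5 had such a match (1 each of EGLN1, EGLN2, HIF1A, EPAS1 and CA9), and 48.4% of all 35116 promoters of the same length had one. HIF1A and EGLN2 each also had a promoter with none. The motif is short and common, and its presence says nothing of binding in these cultures.

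The models with ranks most like CA9 over the 4 treatments were EEF2K, COMTD1 and ZMYM3, with summed differences of 13.5, 14.7 and 15.0 points. None came closer than that, because each of the 3 ranked lower than CA9 after HGF, at 83.4 for EEF2K, 85.1 for COMTD1 and 81.7 for ZMYM3. Of 14 other carbonic anhydrase genes, 12 were under the 60th percentile in all treatments. Over the whole table, 12624 of 25918 models reached it in some treatment. The remaining 2 genes were compared and 0 lay apart, against 9.76% of compared models above and 10.6% below. 2 genes are too few to set against those shares. CA12, the other membrane enzyme commonly induced with CA9, stood at 48.5 after HGF, 53.6 after IFNg, 47.1 after UV and 53.8 after heat shock.

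VEGFA, the main angiogenic growth factor under HIF control, ranked at 94.8 after HGF and 96.9 after IFNg, against 83.2 after UV and 84.0 after heat shock. Both ligand libraries lay above both stress libraries. The mean of the ligand treatments minus the mean of the stress treatments was 12.2 points. EGLN2 had 14.6 and CA9 14.3 on the same measure, so 3 of the 10 genes were at least 10 points higher with the ligands and 0 at least 10 points lower, against 17.6% of models higher and 15.5% lower.

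Transcript GC content moved with this measure across the whole table. Spearman's rho between GC content and the ligand minus stress difference was 0.716 over the gene models with a GC value, which is across genes and not samples. CA9 (60.1% GC), EGLN2 (55.8%) and VEGFA (54.6%) had the highest GC content of the 10, and HIF1A (36.4%) the lowest. After the median rank of models of like GC was subtracted within each treatment, the difference was 6.88 points for VEGFA, 9.27 for EGLN2 and 7.16 for CA9, all under 10. HIF1A had 11.4 points after the correction, against -0.95 before. The compared models within 1 GC point of it had a median difference of -9.60. The subtracted medians came from another set, all models with a GC value, those under the 60th percentile included. The rank of HIF1A was above 98 in every library and could hardly move, so its corrected value comes from what was subtracted. All 10 genes were above 0 after the correction, with a median of 7.08 against 0.83 for all models. The share of all models above 0 was not computed. HIF1A was among the 10 for the reason given, and ARNT also changed sign, from -0.53 to 2.95 points. Of the 10 genes, 1 reached 10 points, against 9.66% of models, and 0 lay 10 points or more below 0, against 5.53%. The part of base composition in these differences was not tested further. The HGF gap of CA9 was 16.7 points after the correction, where 1.37% of models lay apart above after HGF.

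**Figure D2:**
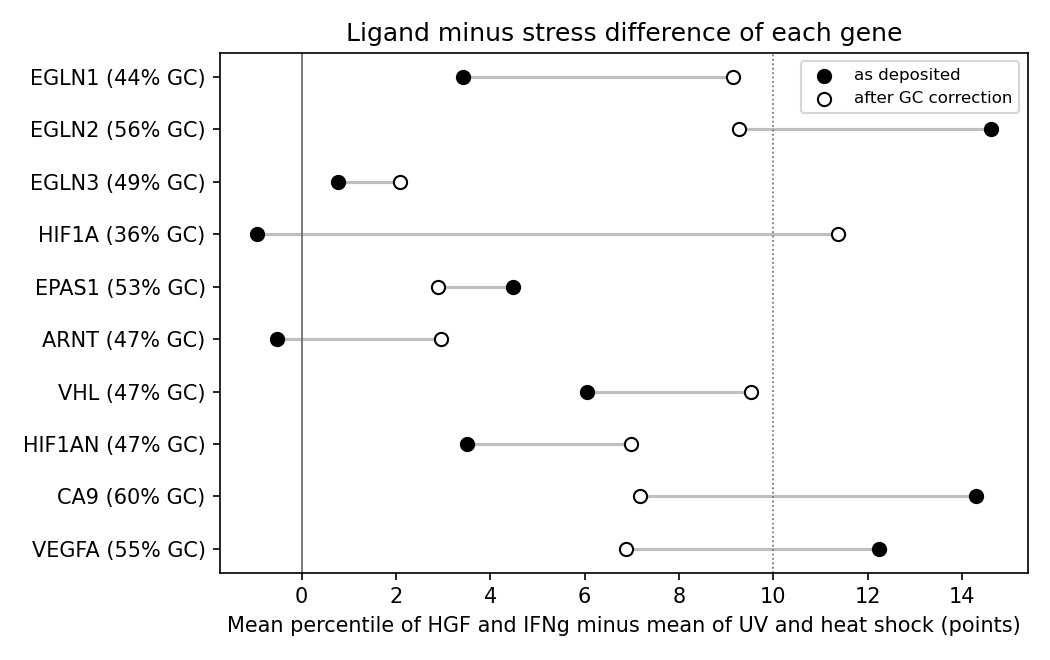
Difference between the mean percentile of the HGF and IFNg treatments and that of the UV and heat shock treatments (points, horizontal axis), as deposited (filled) and after correction for transcript GC content (open), with the 10-point threshold dotted. EGLN2, CA9 and VEGFA pass it as deposited and fall below it after the correction, and HIF1A, whose rank lies near the top of the scale in every library, passes it only after the correction.

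VEGFA carried peaks in all 4 treatments and had 5 joined sites, a site being peaks of 1 model within 100 nt of each other. The site in the 3′ untranslated region (UTR) in exon 8 was listed in every library, at position 2457 after HGF with a score of 4.62, 2460 after IFNg with 4.36, 2467 after UV with 3.09 and 2475 after heat shock with 4.12. Among the sites listed in all 4 treatments its score ranked at 6.87 after UV, against 63.5 after HGF, 82.2 after IFNg and 42.0 after heat shock, and 3.08% of such sites lay 25 points or more below all others after UV. IFNg added a peak at 2722 in the same UTR, score 3.16. Near the stop codon, in exon 8, VEGFA had peaks at 1827 after UV (score 4.22) and at 1814 after heat shock (2.43), and none after HGF or IFNg. In exon 1, the 5′ UTR held a peak at 462 after UV (2.66) and 470 after heat shock (3.32), and the coding segment a peak at 834 after heat shock (2.89). The 3′ UTR site was thus shared, while every VEGFA peak upstream of it came from the stress libraries. Those libraries listed 13307 (UV) and 9803 (heat shock) peaks over the whole table, against 9111 for HGF and 5280 for IFNg.

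Ranks most like those of VEGFA belonged to PLCD3, TESC and ROMO1, with summed differences of 2.42, 2.63 and 3.39 points. In the VEGF family and its receptors, 4 of 9 genes reached the 60th percentile, against 12624 of 25918 models in the whole table. Of those 4, 0 lay apart, against 9.76% of compared models above and 10.6% below. 4 genes are too few to set against those shares. VEGFB stood at 96.1 after HGF, 95.4 after IFNg, 88.8 after UV and 79.8 after heat shock. The VEGF receptor gene KDR, an endothelial receptor, stood at 20.6 after HGF, 22.9 after IFNg, 46.1 after UV and 33.1 after heat shock, all at or within 5 points of the floors.

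EGLN1 encodes PHD2, the main oxygen sensor among the prolyl hydroxylases. Its rank was 74.0 after HGF, 79.3 after IFNg, 72.7 after UV and 73.8 after heat shock, a span of 6.64 points. No treatment lay apart. Of the 4 sites of these genes listed in every library, EGLN1 held the one whose score rank differed most between treatments.

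EGLN1 had 2 sites listed in all 4 treatments, 1 in the coding part of exon 1 and 1 in exon 5 near the stop codon. Their sequences are printed because the order of their scores differed between libraries. The deposited exon 1 has the length of exon 1 of the longer GENCODE 29 transcript of EGLN1, 4047 bases. The deposited gene spans 59360 bases, which is 1934 short of that transcript, and the deposited exon 5 is shorter by the same 1934 bases. Positions were therefore read on this transcript, whose coding sequence runs from 3157 to 4437. Both stretches are GRCh38, minus strand, in transcript sense 5′ to 3′, chr1:231421120-231421212 for the first and chr1:231366223-231366252 for the second, with GGAC and GACT in capitals.
EGLN1 exon 1 coding site: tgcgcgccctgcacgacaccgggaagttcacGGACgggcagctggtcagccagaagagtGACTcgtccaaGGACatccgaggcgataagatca
EGLN1 exon 5 site: tGACTgctgtGACTttgtactgcatgatca
The first stretch holds GGAC 2 times and GACT 1 time, where 35.1% of windows of its length on the transcript hold at least 1 of either. The second holds GACT 2 times, where 13.0% hold at least 1 of either. The shares of windows holding as many as these stretches were not computed. The exon 5 peaks were 170 to 176 bases past the end of the stop codon, so by GENCODE they lie in the 3′ UTR. Their positions were within 6 bases of the A of a GACT in all 4 libraries. At the exon 1 site the A of the nearest GGAC or GACT was farther. It was 10 bases away after HGF, 8 after IFNg, 20 after UV and 23 after heat shock. How often any position falls so close was not computed.

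At the exon 1 site, EGLN1 scored 4.44 at position 3915 after HGF, 2.47 at 3874 after IFNg, 6.42 at 3846 after UV and 5.57 at 3843 after heat shock. At the exon 5 site it scored 6.18 at 4613 after HGF, 2.57 at 4612 after IFNg, 4.04 at 4609 after UV and 2.78 at 4607 after heat shock. The exon 5 site had the higher score of the pair after HGF and IFNg, and the exon 1 site after UV and heat shock. The IFNg difference was small, 2.57 against 2.47. Such a change of order between the ligand and the stress libraries occurred in 84 of 706 like pairs of sites, 11.9%.

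Scores were compared between treatments as ranks among the 2925 sites listed in all 4. The exon 5 site of EGLN1 stood at 93.3 after HGF, against 19.0 after IFNg, 21.4 after UV and 9.30 after heat shock. It lay 71.9 points above the next treatment, the largest such HGF gap of the 2925 sites, of which 3.18% lay 25 points or more above all others after HGF. The exon 1 site stood at 15.7 after IFNg, against 58.4 after HGF, 80.2 after UV and 83.9 after heat shock, a gap of more than 25 points below that 7.9% of sites had after IFNg. EGLN1 mRNA, in contrast to the exon 5 score, ranked within 1.5 points after HGF, UV and heat shock. A further EGLN1 peak, in the 5′ UTR at 3029 in exon 1, was listed after UV only, with a score of 4.80. The A of the nearest GGAC or GACT was 52 bases from it.

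**Figure D3:**
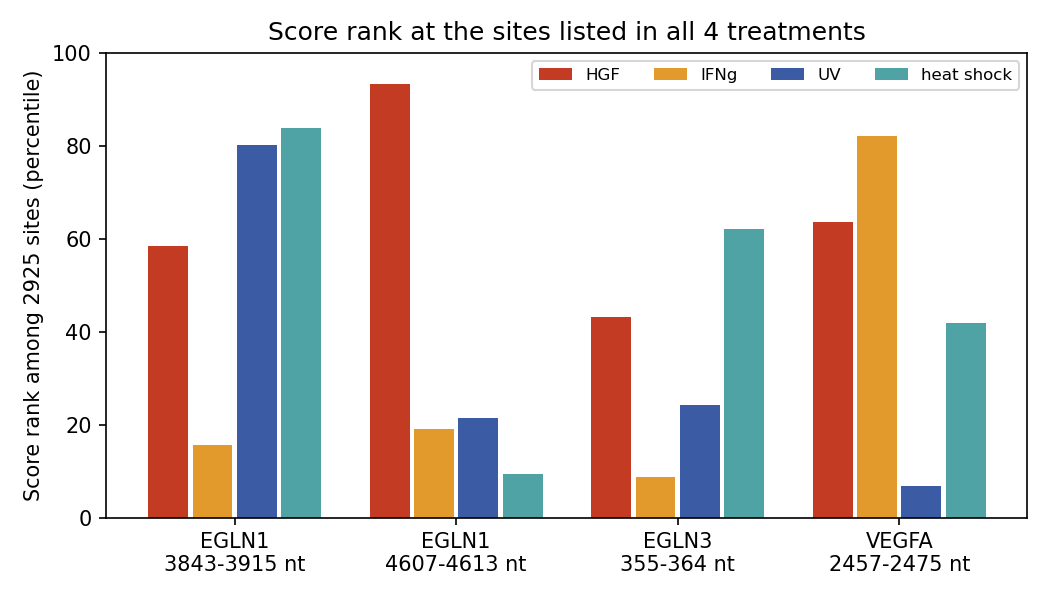
Rank of the m6A score (vertical axis, percentile among the 2925 sites listed in all 4 treatments) at the 4 sites of these genes listed in every treatment, 1 bar for each treatment and no replicates. The exon 5 site of EGLN1 (4607 to 4613 nt) stands at 93.3 after HGF and at 21.4 or lower in the other treatments.

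EGLN2, the mainly nuclear prolyl hydroxylase PHD1, ranked at 67.5 after heat shock, against 87.6 after HGF, 90.6 after IFNg and 81.5 after UV. Heat shock lay 14.0 points below the next treatment, the 213th of 12624 models for that direction, where 3.98% of models lay apart below after heat shock. After GC correction the gap was -11.4 points, where 2.39% of models lay apart below. EGLN2 had 1 site, at position 809 in the coding part of exon 1, with a score of 2.33 after HGF and 2.52 after UV. These scores were at the 14.6th and 11.7th percentile of their libraries. No EGLN2 peak was listed after IFNg, where its mRNA ranked highest, or after heat shock. Of 1040 coding models within 2 points of its mean rank, 37.9% had a peak after IFNg and 54.6% after heat shock.

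EGLN3 encodes PHD3, which is itself a HIF target and so forms a feedback loop. Its rank was 80.6 after HGF, 69.2 after IFNg, 75.9 after UV and 72.3 after heat shock, and no treatment lay apart. Although EGLN3 and CA9 are both hypoxia targets and both ranked highest after HGF, EGLN3 led its next treatment by fewer than 5 points and CA9 by 20.6. RAB40B, the unnamed transcript AK094570 and IFT122 had the ranks most like EGLN3, with summed differences of 3.39, 4.34 and 5.53 points.

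The coding site in exon 1 of EGLN3 was listed in all 4 libraries, with a score of 3.97 at 357 after HGF, 2.26 at 355 after IFNg, 4.17 at 363 after UV and 4.74 at 364 after heat shock. Its positions fell within 9 nt of each other. By rank among shared sites it stood at 43.3 after HGF, 8.65 after IFNg, 24.1 after UV and 62.2 after heat shock. In the 3′ UTR, in exon 5, EGLN3 had a peak at 1633 after HGF (score 4.67), at 1603 after UV (2.32) and at 1638 after heat shock (3.16), with none after IFNg. UV listed a further one at 1451 (2.51).

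HIF1A, the alpha subunit found in most cells, ranked at 98.1 after HGF, 98.1 after IFNg, 98.9 after UV and 99.2 after heat shock. Its mRNA was thus among the top 2% of models in every library, with the smallest span of the 10 genes. Near the top of the scale, however, ranks are compressed and a change in amount moves them little. Its peaks were at the transcript start in exon 1, at position 97 after UV with a score of 8.08 and at 105 after heat shock with 6.19, and none was listed after HGF or IFNg. The UV score was at the 99.6th percentile of UV peaks and the highest of all 51 peaks of these genes, and the heat shock score was at the 96.8th. A start peak after both stresses and neither ligand was also common among its neighbours: 22.5% of 641 coding models within 2 points of its mean rank had it. Among them a start peak was listed for 8.89% after HGF, 1.87% after IFNg, 38.4% after UV and 34.3% after heat shock. The antibody also binds the methylated adenosine next to the cap, and these data do not separate it from internal m6A.

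EPAS1 encodes HIF-2 alpha, the subunit typical of endothelium and of some epithelial tumours. It ranked at 92.3 after IFNg, against 80.9 after HGF, 82.0 after UV and 82.2 after heat shock. The other 3 libraries agreed within 1.5 points, and IFNg lay 10.1 points above the nearest. This gap was just past the threshold, the 426th of 12624 models for IFNg, where 3.39% lay apart above. After GC correction it was 8.42 points, which ends the call.

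EPAS1 had peaks in all 4 libraries but no site listed in every one. The 3′ UTR site in exon 16 was found at 4008 after HGF (score 2.18), 3999 after IFNg (2.59) and 4013 after UV (2.05). A coding peak at 2070 in exon 12 was listed after UV (4.62) and heat shock (2.56), and one near the stop codon, in exon 16, at 3060 after UV (3.58) and 3105 after heat shock (2.98). UV alone had a peak at 4409 in the 3′ UTR (3.11). As in VEGFA, the coding and stop codon peaks of EPAS1 came from the stress libraries. The ligand libraries listed the 3′ UTR site, which UV listed too. The share of all models with peaks split this way was not computed. Other genes of the 10 differed: of the 10 HGF peaks, 4 were in coding sequence and 3 around the stop codon.

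ARNT, the constitutive partner of both alpha subunits, ranked at 91.7 after HGF, 84.1 after IFNg, 88.0 after UV and 88.9 after heat shock. It was the one gene of the 10 with no peak in any treatment. Of 1036 coding models within 2 points of its mean rank, 22.4% had none either.

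VHL, the tumour suppressor that recognises hydroxylated HIF, ranked at 66.7 after heat shock, against 78.6 after HGF, 77.8 after IFNg and 77.6 after UV. The 3 others lay within 1.1 points, and heat shock was 10.8 points below the nearest, or -12.8 after GC correction. It was the 421st of 12624 models in that direction. Apart below after heat shock were 3.98% of all models, and 2.39% after GC correction.

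In the last exon of VHL, exon 3, peaks near the stop codon were at 933 after HGF (score 2.57) and 932 after IFNg (2.13), and at 818 after UV (2.93) and 812 after heat shock (2.79). The ligand libraries agreed to 1 nt and the stress libraries to 6 nt. More than 100 nt lay between the pairs, so they count as different sites. These sites joined into 1 when peaks within 200 nt were joined. All 4 scores were low, at percentile 24.2 of the HGF scores, 7.33 of IFNg, 21.3 of UV and 21.6 of heat shock. The share of all models with sites split this way between ligand and stress libraries was not computed. A coding peak in exon 1 was listed at 351 after UV (5.58) and 365 after heat shock (2.85), and a 3′ UTR peak at 1346 in exon 3 after UV (3.70).

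HIF1AN, the asparaginyl hydroxylase also called factor inhibiting HIF, ranked at 77.2 after HGF, 71.6 after IFNg, 70.9 after UV and 70.8 after heat shock. HGF was highest by 5.63 points, under the threshold. Its peaks lay in exon 8: near the stop codon at 1181 after HGF (score 3.68), 1227 after UV (5.08) and 1205 after heat shock (5.41), and in the 3′ UTR at 1731 after UV (4.41). No HIF1AN peak was listed after IFNg, where 32.2% of 1028 coding models within 2 points of its mean rank had one.

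**Figure D4:**
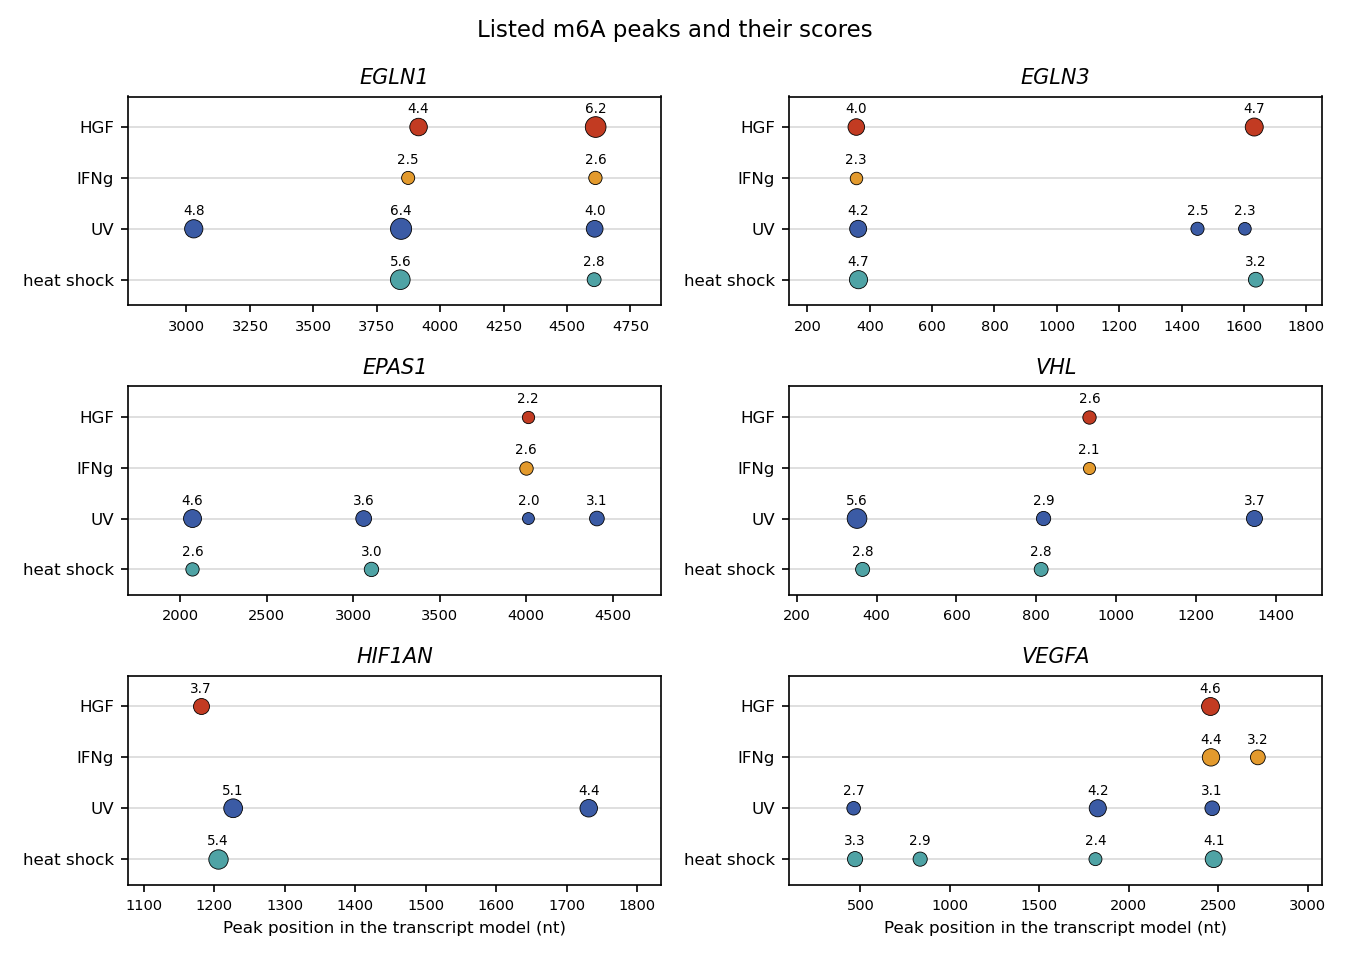
Position of each listed m6A peak in its transcript model (horizontal axis, nt) for 6 of the 9 genes with peaks, by treatment, with point area and number giving the authors' score. Coding and stop codon peaks of EPAS1 and VEGFA come from UV and heat shock, while coding peaks of EGLN1 and EGLN3 come from all 4 treatments. The stop codon peaks of VHL lie at 933 and 932 after HGF and IFNg, with scores of 2.57 and 2.13. After UV and heat shock they lie at 818 and 812, with scores of 2.93 and 2.79.

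Together the 10 genes had 51 peaks, 10 in 8 genes after HGF, 7 in 5 after IFNg, 20 in 8 after UV and 14 in 7 after heat shock. The authors' segments put 16 of them in coding sequence, 15 around the stop codon, 15 in the 3′ UTR, 3 in the 5′ UTR and 2 at the transcript start. Among 6430 coding models in the same range of mean ranks, a peak was listed for 53.8% after HGF, 39.7% after IFNg, 68.7% after UV and 57.5% after heat shock. IFNg was the lowest treatment in both. EGLN1, EGLN3, EPAS1, VHL and VEGFA had a peak in all 4 treatments, 5 of 10, against 32.1% of those models.

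The peaks joined into 24 sites, of which 4 were listed in all 4 treatments, 3 in 3, 9 in 2 and 8 in 1. The share in all 4 was 16.7%, and it was 16.5% over the whole table. Of the 8 sites seen once, 5 were from UV, the library with the most peaks, and 1 each from HGF (CA9), IFNg (VEGFA) and heat shock (VEGFA). When only peaks above the median score of their treatment were kept, 0 sites and 1 gene had a peak in all 4.

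The wider pathway was taken from 5 lists holding 94 genes in the table, 67 of them at or above the 60th percentile in some treatment. Of these, 4 (5.97%) lay apart above in some treatment, against 9.76% of all models, and 2 (2.99%) apart below, against 10.6%. Among the HIF partners and regulators, 1 of 13 lay apart: ARNT2, a tissue-restricted relative of ARNT, ranked at 76.3 after HGF, against 61.7 after IFNg, 57.2 after UV and 56.8 after heat shock. None of 19 HIF targets of glycolysis was apart in any treatment, against the same 9.76% above and 10.6% below. But 9 of the 20 listed were at the 90th percentile or higher in all 4. There the scale leaves almost no room for a gap of 10 points, so their ranks do not show unchanged amounts. Lactate dehydrogenase A (LDHA), for example, stood at 99.8 after HGF, 99.6 after IFNg, 99.7 after UV and 99.8 after heat shock.

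Among 29 other HIF targets, 3 (10.3%) lay apart above and 2 (6.90%) below in some treatment, shares near or under the 9.76% and 10.6% of all models. Stanniocalcin 2 (STC2) ranked at 97.3 after IFNg, against 78.2 after HGF, 68.4 after UV and 70.4 after heat shock. The lipoprotein receptor VLDLR ranked at 74.7 after IFNg, against 58.8 after HGF, 61.2 after UV and 58.9 after heat shock. The collagen prolyl hydroxylase P4HA2 ranked at 68.4 after UV, against 83.3 after HGF, 82.5 after IFNg and 87.7 after heat shock, where 2.17% of models lay apart below after UV. Its paralogue P4HA1, named after its values were seen, ranked at 92.7 after heat shock, against 78.9 after HGF, 72.8 after IFNg and 82.3 after UV, a gap of 10.4 points that was 5.47 after GC correction. Apart above after heat shock were 2.87% of models. Endothelin 1 (EDN1), a vasoconstrictor, ranked at 68.0 after HGF, against 79.8 after IFNg, 87.1 after UV and 93.6 after heat shock, a gap of -11.7 points that was -9.92 after GC correction. Apart below after HGF were 1.39% of models. Of the 29 genes, 0 lay apart above after HGF, the treatment in which CA9 did. That is near the share of all models, 1.57%. Over all 29, the median HGF rank minus the median of the other 3 treatments was 3.08 points, against -0.24 over all models compared.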

How the data were processed

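The study sequenced m6A precipitated and input polyA RNA from cultures labelled HepG2. The authors deposited 1 table of 25918 gene models. Per the file headers, it gives for each treatment a mean expression quantile, a fraction from 0 to 1 that is written here as a percentile, and for each peak a position, exon, exon length, segment and score. The score is the authors' own, with a lowest listed value of 2. Aligner, peak caller, genome build, score formula and depth are not given in the sources used here, nor is whether the quantile comes from precipitated or input RNA. The quantile holds no read counts, so no interval can be given.

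Percentiles under 45.5, the highest of the 4 floors, were set to that value, and models under 60 in all treatments were left out of comparisons. Peaks within 100 nt were joined into sites. GC content came from the longest GENCODE 29 transcript of each symbol, available for 89.0% of compared models. The correction subtracted the median percentile of 40 GC bins within each treatment. These bins held all models with a GC value, those under 60 in all treatments included. Motifs were read from GENCODE 29 and RefSeq sequence. The rule for lying apart and the joining of peaks were tested on simulated data, and the other steps were not. Tables were handled with pandas 2.3.3 and NumPy 2.4.6 under Python 3.11.15. Correlations used SciPy 1.17.1, and figures were drawn with matplotlib 3.10.9. The genes, lists and thresholds were chosen with earlier results of these data known. All 10 genes are named. From each wider list up to 4 genes apart in a treatment are named, by size, and for CA9, VEGFA and EGLN3 the 3 models with the smallest summed difference. ALB, TTR, COL1A1, COL1A2, CA12, VEGFB, KDR and LDHA were added as illustrations after their values were seen.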

Additional observations from a re-analysis of the deposited data

How the results depend on the processing

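Leaving the floors as deposited and using the gene model with the lowest mean percentile, or any model of the symbol, could not change a value of the 10 genes, since all lay above the floors and each had 1 row, and none of these tests them. Ranked again among models above the floor in all 4 treatments, which stretches the scale because fewer models are ranked, the genes apart above numbered 4 in place of 2, the HGF rank of CA9 over the median of the other 3 was 46.9 points in place of 24.1, and the ligand minus stress difference of VEGFA was 24.1 in place of 12.2. Under GC correction the genes apart above numbered 1 (CA9), the difference of VEGFA was 6.88, and the genes at least 10 points from 0 on that measure numbered 1 (HIF1A, whose rank is near the top of the scale) in place of 3. At a threshold of 5 points 4 genes were apart above, EGLN1 and HIF1AN joining. For this threshold and for the ranking again, the share of all models apart above was not computed, so these counts have no background. With only peaks above the median score of their treatment, 1 gene in place of 5 and 0 sites in place of 4 had a peak in all 4 treatments. The HGF rank of the EGLN1 exon 5 site over the median of the other 3 was 74.3 points, and 68.0 to 75.0 under the other join distances and among all peaks. The remaining alternatives kept their direction and stayed within 1.5 times of the value reported. No paired analysis was possible because each treatment had 1 pair of libraries and 1 deposited value. No replicate could be left out. Depth is unknown, so a peak that is not listed may lie under the detection limit.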
